A study of Mus musculus with 3 samples.

Results

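Mast cells keep histamine, serotonin and heparin packed together in their granules, and the genes described here are those that make or hold that cargo. They are *Hdc*, *Tph1*, *Ddc* and *Slc18a2* for the amines, and *Srgn*, *Ext1*, *Ndst1* and *Ndst2* for the proteoglycan matrix. They were chosen by name, taking every non-control probe whose gene name in the array annotation is one of these or *Prg1*, the older name of *Srgn*. This gave 8 genes of the 27962 gene names on the array, with 14 probes among the 41174, and all 14 were among the 41157 probes that had a value on every array and were tested. Histamine is made from histidine in a single step, whereas serotonin is made from tryptophan in successive steps, a hydroxylation and a decarboxylation. Both amines are pumped into granules by a vesicular transporter and are held there by heparin, a long and heavily sulfated sugar chain carried on the serglycin protein. Mast cells that lack serglycin or sulfated heparin are known to store proteases and amines poorly.

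The cells were mast cell progenitors (MCps) of WT and *p85α−/−* mice, which lack the p85α regulatory subunit of class IA PI3K. Low density mononuclear cells of the marrow came from 3 mice of each genotype, were cultured for 7 days with 10 ng/mL of IL-3, were sorted as positive for both KIT and the IgE receptor, and then given SCF (100 ng/mL) for 48 hours, in both genotypes alike. As few cells were sorted, cDNA was amplified by a global PCR before 250 ng was labeled, and 1 WT culture (Cy3) was hybridized with 1 *p85α−/−* culture (Cy5) on each of 3 arrays (replicates 1 to 3). Dye and genotype cannot be told apart, because WT carried Cy3 on every array. No age or strain of the mice is given in the sources used here.

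Values below are log2 intensities after background correction and quantile normalization of the 6 channels. A log2 ratio is *p85α−/−* minus WT on the same array, its error is the SD over the 3 arrays, and adjusted p is from limma's test with Benjamini-Hochberg adjustment over all 41157 probes. A probe was counted as past both criteria at a difference of at least 1.5-fold and an unadjusted p under 0.05. Before normalization, 72.1%, 69.4% and 85.3% of spots were well above background in the WT cultures of replicates 1, 2 and 3, and 77.6%, 93.8% and 77.3% in the *p85α−/−* cultures. Having only 3 arrays limits the precision of every ratio. Over all tested probes, the log2 ratios of different arrays hardly correlated. Pearson's r was 0.0088 for replicates 1 and 2, 0.172 for 1 and 3, and −0.028 for 2 and 3. *Pik3r1*, the disrupted gene, served as a check of the labels. At its brightest probe, WT intensities were 9.25, 8.89 and 8.36 in replicates 1, 2 and 3, and *p85α−/−* intensities were 10.74, 8.86 and 8.69. At the next brightest they were 9.79, 8.82 and 8.99 in WT and 8.75, 8.51 and 8.62 in *p85α−/−*. The genotypes overlapped at the brightest probe, where the mean log2 ratio was 0.59 (0.15 without replicate 1, 1.34 with median centring), while at the next one every *p85α−/−* culture lay below every WT culture and the mean was −0.58 (−0.34 without replicate 1, 0.06 with median centring), with an adjusted p of 0.908 for both. Mean ratios at the other probes were 0.32 and −0.04, the last one 0.086 without replicate 2. Where these probes lie relative to the disrupted part of the gene is not given in the sources used here, so they do not settle the labels, and each direction given below rests on the genotypes as labeled. The authors' PCR of *Lin9*, *Rrm1*, *Cbx5* and *Taok3* in such cells ran in the directions of their own array results, although *Lin9* hardly differed by PCR. They also state a loss of p85α by western blot in mast cells of *p85α−/−* mice, without showing the blot.

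The sorted cells carried the RNA of mast cell markers. Of 14 such genes, 12, 13 and 13 were well above background in the WT cultures and 13, 14 and 13 in the *p85α−/−* cultures. *Mcpt2*, a protease of mucosal mast cells, was above background in 1 WT and 1 *p85α−/−* culture, and *Ms4a2*, the IgE receptor β chain, in 1 WT culture and all 3 *p85α−/−* cultures. Summed over the list, normalized intensity was 69856, 26352 and 44865 in WT and 166290, 133966 and 89751 in *p85α−/−*, so that every *p85α−/−* culture lay above every WT culture. *Cma1*, which encodes a chymase, was the brightest of the list, and without it the sums overlapped (60474, 21616 and 20224 in WT and 63513, 86909 and 58495 in *p85α−/−*). In bulk RNA, fewer cells of a type and less RNA per cell cannot be told apart.

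Among the 14 storage gene probes, 2 were past both criteria and higher in *p85α−/−*, one for *Srgn* and one for *Slc18a2*, where 1145 of all 41157 tested probes (2.78%) were. That count of 2 was 0 without replicate 2, 1 without replicate 3 and 4 with median centring, where 3.65%, 2.97% and 5.96% of all tested probes were past both criteria and higher. None of the 14 was past both criteria and lower, against 684 of all probes (1.66%). No storage gene probe had an adjusted p under 0.05, and neither did any probe of the array by limma's test (0%), although 1829 had an unadjusted p under 0.05. At 3 probes, those 2 and the brightest of *Tph1*, all 3 *p85α−/−* cultures lay above all 3 WT cultures, as they did for 4.54% of all probes. At 0 storage gene probes did they all lie below, against 5.94%. The same 3 probes were the only ones of the 14 with a log2 ratio above 0 on all 3 arrays, a pattern found for 12.5% of all probes. Taking the brightest probe of each gene, 6 of 8 means were positive and the median of the 8 was 0.69, where 18447 of the 41157 probes were above 0 and the median of all was −0.05. The median of the 8 was 0.999 without replicate 1, 1.16 without replicate 2 and 1.55 with median centring.

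**Figure D1:**
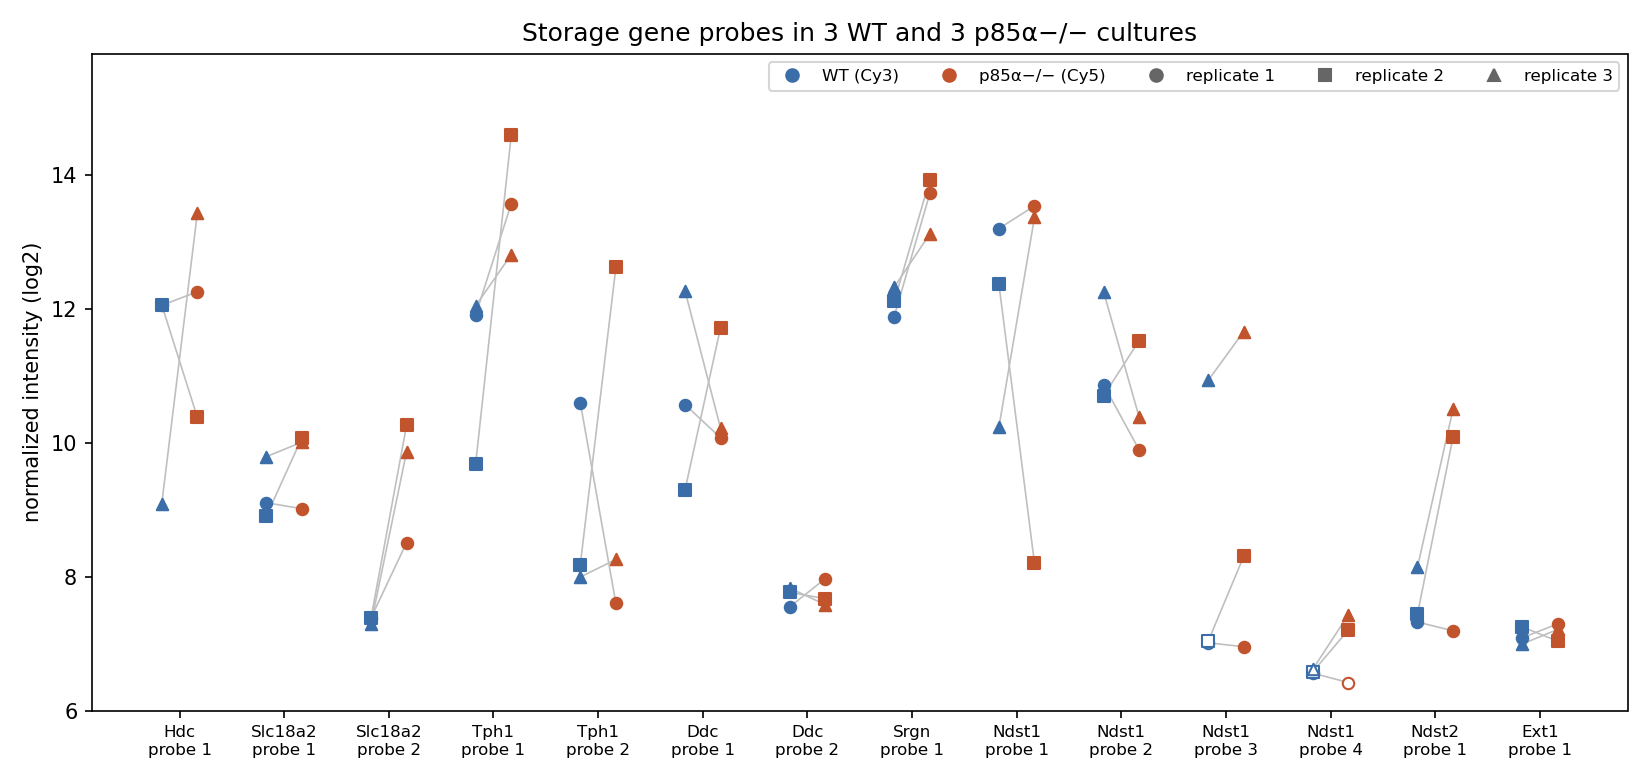
Normalized log2 intensity (vertical axis) of the 14 storage gene probes, with probes of a gene numbered from the brightest. Blue marks are WT and orange marks *p85α−/−* cultures, the mark's shape gives the replicate, lines join cultures hybridized together and open marks were not well above background. The *p85α−/−* marks lie above all WT marks at *Srgn*, at *Tph1* probe 1 and at *Slc18a2* probe 2.

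*Hdc* encodes histidine decarboxylase, which makes histamine. Its only probe (chromosome 2, 126334633 to 126334692, as the array annotation places it without naming a genome build) gave WT intensities of 12.05, 12.06 and 9.08 in replicates 1, 2 and 3, and *p85α−/−* intensities of 12.25, 10.38 and 13.42. The highest and the lowest of the 6 cultures thus sat on the same array, that of replicate 3, and the genotypes overlapped. Log2 ratios were 0.20, −1.68 and 4.34, their mean was 0.96 ± 3.08 (SD, n = 3), and limma's test gave an adjusted p of 0.927. The 95% interval of the mean by limma, −2.82 to 4.73, spans large differences either way. Without replicate 3 the mean was −0.74, without replicate 2 it was 2.27 and with median centring 2.07.

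*Tph1* encodes tryptophan hydroxylase, which starts serotonin synthesis outside the brain. At its brightest probe (chromosome 7, 42823437 to 42823496), WT intensities were 11.90, 9.68 and 12.04, and *p85α−/−* intensities were 13.56, 14.58 and 12.81. All *p85α−/−* cultures were above all WT cultures, with the WT culture of replicate 2 the lowest and its *p85α−/−* partner the highest. The mean log2 ratio was 2.44 ± 2.18 (SD, n = 3), with 1.66, 4.90 and 0.77 on the arrays and an adjusted p of 0.908. This probe was not past both criteria, but it was with median centring (3.78), with the software's processed signals (2.71), with dim probes left out and without the pairing by array. Without replicate 2 its mean was 1.21. The dimmer *Tph1* probe (42833417 to 42833476) differed from it in replicate 1. WT intensities there were 10.60, 8.18 and 7.99, and *p85α−/−* intensities were 7.60, 12.61 and 8.25. Replicate 2 was again far higher in *p85α−/−*, by 4.44, whereas replicate 1 was lower by a log2 ratio of −3.00, so the genotypes overlapped and the mean was 0.57 ± 3.73 with an adjusted p of 0.969. Without replicate 2 it was −1.37.

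*Ddc* encodes the aromatic amino acid decarboxylase that turns 5-hydroxytryptophan into serotonin. The brighter of its probes (chromosome 11, 11828267 to 11828326) gave 10.57, 9.29 and 12.27 in WT and 10.07, 11.71 and 10.22 in *p85α−/−*. The genotypes overlapped, since WT of replicate 3 was the highest culture and WT of replicate 2 the lowest. The mean log2 ratio was −0.04 ± 2.27 (SD, n = 3), and its adjusted p was 0.998. Its sign changed with loess normalization (0.047), with median centring (0.89), without replicate 1 (0.19) and without replicate 3 (0.97). The dimmer probe (11767325 to 11767384) hardly varied, with 7.55, 7.77 and 7.83 in WT and 7.97, 7.67 and 7.58 in *p85α−/−*. This probe had low raw intensities in WT (66.5, 73.7 and 148), so its small spread does not show that expression was steady. Its mean was 0.03 ± 0.35, with a 95% interval from −0.75 to 0.80 and an adjusted p of 0.994, and it was −0.17 without replicate 1. The spread of the log2 ratio at *Ddc* thus differed greatly between probes of the same gene.

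*Slc18a2* encodes VMAT2, the transporter that loads histamine and serotonin into granules. It has 2 probes close together on chromosome 19, and they differed in what they showed. The brighter one (59217576 to 59217636) had 9.10, 8.90 and 9.79 in WT and 9.01, 10.07 and 10.01 in *p85α−/−*. These groups overlapped, and the mean log2 ratio was 0.43 ± 0.66 (SD, n = 3, adjusted p of 0.908), which was past both criteria with median centring (1.1) and was 0.064 without replicate 2. The dimmer one (59217832 to 59217891) had 7.38, 7.38 and 7.30 in WT, an SD of 0.05, and 8.51, 10.26 and 9.86 in *p85α−/−*. Here every *p85α−/−* culture was above every WT culture, and the probe was well above background in all 6. Log2 ratios of 1.13, 2.88 and 2.57 gave a mean of 2.19 ± 0.94, or 4.57-fold, past both criteria but with an adjusted p of 0.908. Its size depended on the background, the mean being 3.36 with the software's processed signals and 2.66 without background subtraction. Without replicate 2 (1.85) and without replicate 3 (2.00) it was no longer past both criteria. Averaged over both probes, *Slc18a2* had a log2 ratio of 1.31 and was past both criteria.

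*Srgn* encodes serglycin, the protein core that carries the heparin chains of the granule. Its single probe (chromosome 10, 62013209 to 62013268) gave 11.88, 12.11 and 12.32 in WT and 13.72, 13.92 and 13.11 in *p85α−/−*. The groups did not overlap, and within each genotype the cultures lay close together, with SDs of 0.22 for WT and 0.42 for *p85α−/−*. Log2 ratios were 1.84, 1.82 and 0.79, with a mean of 1.48 ± 0.60 (SD, n = 3), or 2.79-fold. The probe was higher in *p85α−/−* on all 3 arrays and past both criteria, and its adjusted p was 0.908. With the software's processed signals (1.51), without replicate 1 (1.30) and without replicate 2 (1.31) it was no longer past both criteria. Its direction was the same under all 11 alternatives tried, and its mean was 2.74 with median centring.

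The heparin chain is polymerized by exostosins and then modified, first by N-deacetylase/N-sulfotransferases, which open the way for all further sulfation. *Ndst2*, the form that connective tissue mast cells need to make heparin, had WT intensities of 7.32, 7.44 and 8.14 and *p85α−/−* intensities of 7.19, 10.08 and 10.50 at its only probe (chromosome 14, 18380593 to 18380652). The *p85α−/−* culture of replicate 1 was the lowest of the 6, while those of replicates 2 and 3 were the highest. Log2 ratios of −0.13, 2.64 and 2.36 gave a mean of 1.63 ± 1.53 (SD, n = 3) with an adjusted p of 0.908. Without replicate 1 the mean was 2.50 and past both criteria.

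*Ndst1*, the form found in most tissues, has 4 probes, of which the brightest and the next had opposite signs on every array, while the dimmest 2 had the same sign on every array. The brightest gave 13.19, 12.37 and 10.23 in WT and 13.53, 8.20 and 13.36 in *p85α−/−*. The genotypes overlapped, replicates 2 and 3 differed in opposite directions with log2 ratios of −4.16 and 3.13, and the mean was −0.23 ± 3.68 (SD, n = 3) with an adjusted p of 0.990. Without replicate 2 it was 1.74, and with median centring 1.11. The second probe gave 10.87, 10.70 and 12.25 in WT and 9.89, 11.52 and 10.38 in *p85α−/−*, a mean of −0.67 ± 1.37, which was 0.25 with median centring and −0.075 without replicate 3, and was past both criteria without replicate 2 (−1.42). The third was well above background in 1 WT culture, that of replicate 3, and in all *p85α−/−* cultures, and its log2 ratio in that replicate was 0.73. The fourth was not well above background in any WT culture and was so in 2 *p85α−/−* cultures (adjusted p of 0.908), so no fold is given for it. *Ext1*, the exostosin that builds the chain together with Ext2, had 7.09, 7.25 and 6.99 in WT and 7.29, 7.04 and 7.21 in *p85α−/−* (chromosome 15, 53130116 to 53130175). All 6 cultures were close together. The mean log2 ratio was 0.07 ± 0.25, its adjusted p was 0.976 and its 95% interval ran from −0.64 to 0.79. Its sign was negative with median centring (−0.048) and without replicate 3 (−0.0023). The *Ext1* probe was well above background in all 6 cultures but dim in WT, with raw intensities of 47.0, 49.6 and 61.5. With so little signal, the small spread does not show that *Ext1* expression was alike in the genotypes.

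How far probes of a gene resembled each other was therefore counted. The 4 storage genes with several probes gave 27 comparisons of a pair of probes on an array, and the sign of the log2 ratio was the same in 14 of them (51.9%). *Slc18a2* and *Tph1* each had the same sign on 2 of 3 arrays, *Ddc* on 1 of 3, and *Ndst1* in 9 of 18 comparisons. Over all 8843 gene names with several tested probes, the share was 52.8% of 58593 comparisons. The storage genes thus lay close to the array as a whole in this respect. The median SD of the log2 ratio was 1.15 over the 14 probes and 0.67 over all tested probes.

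The genes past both criteria at a probe, *Slc18a2* (its dimmer probe only) and *Srgn*, are shown with the DNA around their starts. RefSeq sequences (GRCm38.p6), from 250 bases before to 30 after a gene's start, were matched for 6 of the 8 genes. Of the others, *Ndst1* was not looked up and *Ext1* had no match. On both strands, the letters GATAA, which GATA factors are known to bind, TGACGTCA, which CREB factors are known to bind, and CANNTG, the E-box, were searched for. GATAA was found in 24.4% of all 32851 such sequences, TGACGTCA in 1.74% and CANNTG in 70.1%. Capitals mark the matches, of which *Slc18a2* has 1 of each motif, and the 2 listed starts of *Srgn* have 3 and 4 of CANNTG, and none of the others. *Slc18a2* lies on the plus strand (chr19:59260628-59260907) and *Srgn* on the minus strand (chr10:62527416-62527695 and chr10:62507728-62508007).
Slc18a2: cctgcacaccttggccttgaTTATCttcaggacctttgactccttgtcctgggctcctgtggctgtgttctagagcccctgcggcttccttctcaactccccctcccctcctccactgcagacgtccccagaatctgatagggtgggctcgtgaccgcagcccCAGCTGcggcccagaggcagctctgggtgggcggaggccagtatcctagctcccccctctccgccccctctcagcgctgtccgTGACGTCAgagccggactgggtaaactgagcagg
Srgn, upstream start: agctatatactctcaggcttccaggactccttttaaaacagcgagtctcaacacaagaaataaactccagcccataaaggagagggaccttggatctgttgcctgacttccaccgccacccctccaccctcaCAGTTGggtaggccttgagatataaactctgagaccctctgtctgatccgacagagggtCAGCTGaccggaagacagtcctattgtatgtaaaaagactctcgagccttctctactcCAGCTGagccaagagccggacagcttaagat
Srgn, downstream start: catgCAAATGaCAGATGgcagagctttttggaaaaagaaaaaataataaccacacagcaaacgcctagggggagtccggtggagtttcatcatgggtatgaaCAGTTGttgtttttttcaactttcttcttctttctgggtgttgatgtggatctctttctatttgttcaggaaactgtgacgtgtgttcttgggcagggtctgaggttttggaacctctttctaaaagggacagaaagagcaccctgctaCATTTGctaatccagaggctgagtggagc
The TGACGTCA of *Slc18a2* begins 4 bases before the start. *Hdc* and 1 of the 2 starts of *Tph1* held 1 CANNTG each, and *Ddc* and *Ndst2* held none of the motifs. A match of letters is a description of the sequence and no evidence that a factor binds there.

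For each gene's brightest probe, the probes of other genes most like it were taken by Pearson's r over the 6 normalized log2 intensities, among 16744 probes of named genes that were well above background in every channel. The 6 values share arrays and dyes, and with so many candidates a high r is found for any pattern. *Hdc* was most like *Uqcrh* (r = 0.981) and *Rnf31* (0.978), and *Tph1* was most like *Alox5* (0.986), the enzyme that starts leukotriene synthesis, and *Rps10* (0.981). *Slc18a2* had *Paics* (0.980) among the probes most like it, and *Ddc* was most like *Wnk2* (0.979) and *Erf* (0.978). *Srgn* was most like *Nop56* (0.983) and *Ncf4* (0.983), the latter a subunit of the phagocyte oxidase. In the heparin group, *Ndst1* was most like *Hnrnpab* (0.998) and *Chchd2* (0.994), *Ndst2* was most like *Psmb2* (0.997) and *Wdr92* (0.992), and *Ext1* was most like *Ikzf5* (0.997) and *Ms4a4d* (0.991).

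Other genes of these pathways were read from the same fit, at the brightest probe of each. For comparison with the counts of each list, 2.78% of all tested probes were past both criteria and higher, and 1.66% lower. Among 8 genes of histamine and monoamine turnover, 1 was past both criteria and higher, none lower, and the median log2 ratio was −0.06. *Maob*, a monoamine oxidase that breaks down amines, had 9.59, 6.87 and 8.08 in WT and 11.62, 9.60 and 12.29 in *p85α−/−*. It was higher in every *p85α−/−* culture than in any WT culture, with a mean log2 ratio of 2.99 ± 1.11 (SD, n = 3, adjusted p of 0.839), and was well above background in 2 of 3 WT cultures. The WT culture of replicate 2 was not, so the size of that replicate's ratio depends on the background. With the software's processed signals the *Maob* mean was 3.98. *Hal*, whose enzyme consumes the histidine that *Hdc* uses, had 8.95, 8.23 and 7.99 in WT and 12.43, 8.42 and 13.08 in *p85α−/−*, a mean of 2.92 ± 2.50 with an adjusted p of 0.908. It was past both criteria without replicate 2 (4.29), with median centring (4.06), with the software's processed signals (3.34) and with dim probes left out, and was 1.84 without replicate 3. Like *Hdc*, it had its highest intensity in the *p85α−/−* culture of replicate 3.

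Among 14 genes of amine synthesis cofactors and transport, 1 was past both criteria and higher, none lower, and the median was −0.05. *Qdpr*, which regenerates the tetrahydrobiopterin that tryptophan hydroxylase needs, had 7.37, 7.57 and 7.15 in WT, and log2 ratios were 1.63, 2.04 and 0.49. Its genotypes did not overlap and its mean was 1.39 ± 0.81 (SD, n = 3, adjusted p of 0.908), but without replicate 1 (1.26) or replicate 2 (1.06) it was no longer past both criteria. The size of the *Qdpr* mean depended on the background, being 2.62 with the software's processed signals and 1.86 without background subtraction. *Slc6a4*, the serotonin uptake transporter, was lower in every *p85α−/−* culture than in any WT culture, with a mean of −0.76 ± 0.99 that rested mostly on replicate 3 (−1.90) and was −0.20 without it. None of 9 histamine and serotonin receptor genes was past both criteria, and their median was −0.39. *Hrh3* was the only one of them with 1 sign on all arrays, at −0.70 ± 0.61, which was −0.37 without replicate 1 and −0.065 with median centring.

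Among 22 genes that build and modify the glycosaminoglycan linker and the heparan chain, 1 was past both criteria and higher, none lower, and the median was −0.09. This was *Hs3st1*, which adds the 3-O-sulfate that gives heparin its antithrombin site. Its intensities were 7.52, 6.67 and 6.62 in WT and 9.94, 8.83 and 9.01 in *p85α−/−*. It was well above background in 1 of 3 WT cultures, that of replicate 1, and in all *p85α−/−* cultures, so the sizes of its ratios in replicates 2 and 3 depend on the background. Log2 ratios were 2.42, 2.16 and 2.39 (mean 2.32 ± 0.14, SD, n = 3), and its adjusted p of 0.763 was the lowest value that any probe reached. The mean was 5.43 with the software's processed signals and 2.93 without background subtraction, and it was past both criteria under all 11 alternatives. *Hs3st3b1*, of the same enzyme family, had −0.27 ± 0.24, which was −0.14 without replicate 2, −0.10 with median centring and −0.46 with the software's processed signals.

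None of the 13 chondroitin sulfate genes found on the array was past both criteria, and their median was −0.15. *Chst12* (0.67 ± 0.92) and *Csgalnact1* (−0.47 ± 0.38) had the largest means among those with 1 sign on all arrays. *Chst12* had 0.14 without replicate 3 and 1.65, past both criteria, with median centring. *Csgalnact1* had −0.25 without replicate 2, −0.27 with median centring and −0.96 with the software's processed signals. None of 11 genes for sugar nucleotides and sulfate donors was past both criteria either, with 8 means above 0 and a median of 0.44. In that list, *Uxs1*, which makes the UDP-xylose that starts the linker, was not well above background in any WT culture and was so in all 3 *p85α−/−* cultures (adjusted p of 0.908), so no fold is given for it, and it was past both criteria and higher with the software's processed signals. The sulfate transporter gene *Slc26a2* had −0.49 ± 0.51, which was −0.21 without replicate 2 and −1.24 with the software's processed signals.

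Of 11 other proteoglycan core genes, 2 were past both criteria and lower (against 1.66% of all tested probes), none higher, and the median was −0.21. *Sdc3*, a cell surface syndecan, had 11.10, 11.36 and 10.57 in WT and 9.73, 9.95 and 9.75 in *p85α−/−*, a mean of −1.20 ± 0.33 (SD, n = 3). *Prg3*, a relative of the eosinophil major basic protein, had 12.23, 12.58 and 11.96 in WT and 10.94, 11.43 and 11.20 in *p85α−/−*, a mean of −1.07 ± 0.27. For both, every *p85α−/−* culture was below every WT culture, opposite to *Srgn*, and the adjusted p was 0.908. With median centring the means were −0.39 and −0.04. With that centring, with the software's processed signals, without replicate 1 (−1.11 and −0.96) and without replicate 2 (−1.10 and −1.03), neither was past both criteria, nor was *Sdc3* over the mean of its probes (−0.68).

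**Figure D2:**
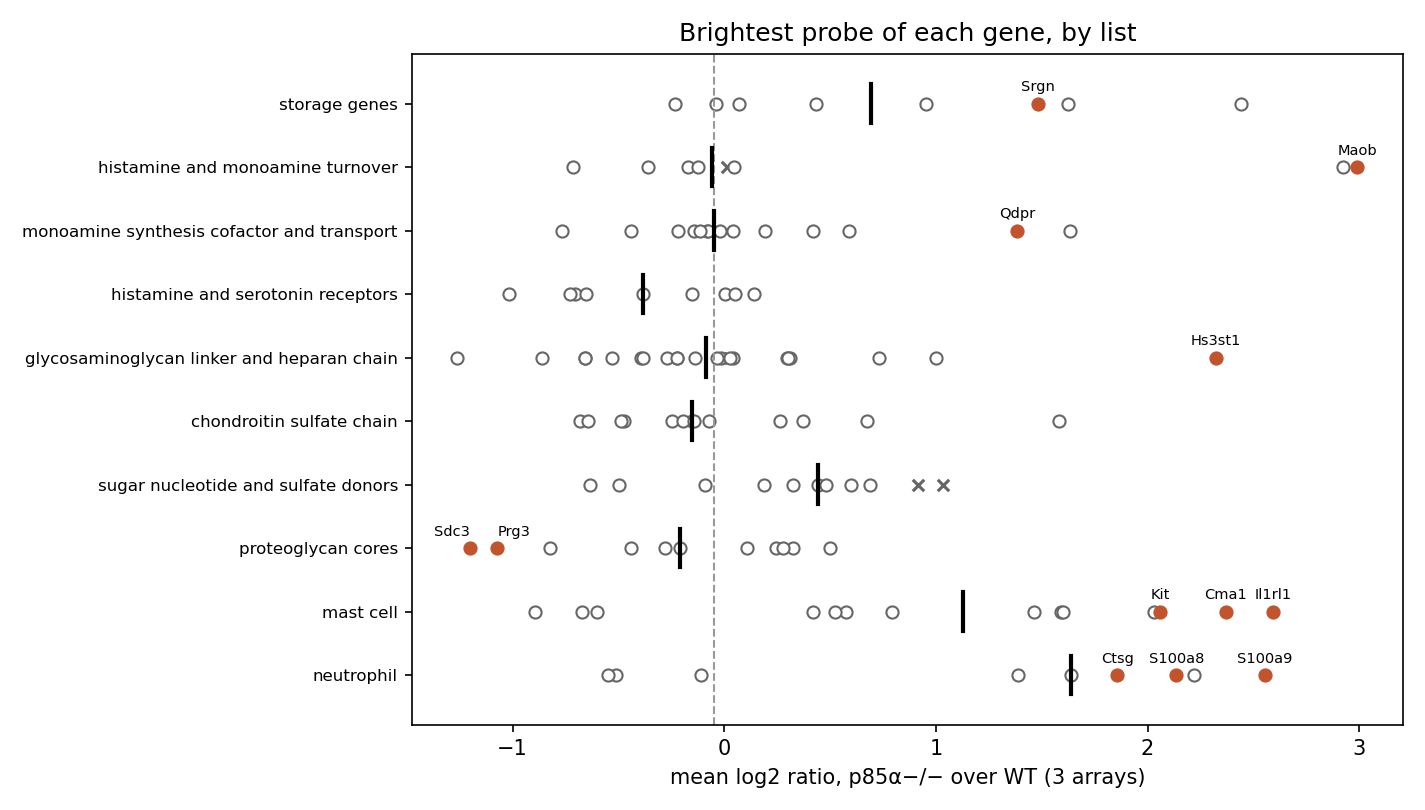
Mean log2 ratio of *p85α−/−* over WT (horizontal axis, 3 arrays) at the brightest probe of each gene, by gene list. Filled, named points were past 1.5-fold and an unadjusted p under 0.05, and crosses were not well above background in any culture of at least 1 genotype. Black bars are list medians and the dashed line is the median of all tested probes (−0.05). The storage gene median is 0.69, the mast cell median 1.13 and the neutrophil median 1.64.

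Mast cell markers were mixed. Of the 14 markers, 3 were past both criteria and higher in *p85α−/−*, none lower, 7 had a log2 ratio above 0 on all 3 arrays, at 4 the genotypes did not overlap, 3 means were below 0, and the median was 1.13. Among all tested probes, 2.78% were past both criteria and higher, and 1.66% lower. The log2 ratio was above 0 on all 3 arrays for 12.5% of them, and 4.54% had every *p85α−/−* culture above every WT culture. *Kit*, used for the sort, had 10.10, 8.07 and 8.58 in WT and 11.55, 10.26 and 11.11 in *p85α−/−*. *Il1rl1*, the IL-33 receptor, had 11.68, 10.03 and 8.71 in WT and 13.42, 12.12 and 12.65 in *p85α−/−*, a mean log2 ratio of 2.59 ± 1.18 (SD, n = 3) with an adjusted p of 0.908. The chymase gene *Cma1* had a mean of 2.37 ± 1.76 and was no longer past both criteria with loess (1.92), over the mean of its probes (1.84), without replicate 1 (1.83) or without replicate 2 (1.90). For all 3 genes, every *p85α−/−* culture lay above every WT culture. The carboxypeptidase *Cpa3* had 1.59 ± 2.42, *Gata2* 1.60 ± 1.26, *Ms4a2* 1.47 ± 1.66 and *Tpsg1* 2.03 ± 2.68. As *Ms4a2* was well above background in just 1 WT culture, the size of its mean depends on the background. Without replicate 2, *Cpa3* had 0.20, *Ms4a2* 0.52 and *Tpsg1* 0.49, and without replicate 3 *Gata2* had 0.89. With median centring *Cpa3* (2.80), *Gata2* (2.86) and *Tpsg1* (3.25) were past both criteria, *Gata2* was also with dim probes left out, and *Ms4a2* was so with the software's processed signals (2.84). *Fcer1a* (0.57 ± 3.24), *Tpsb2* (0.79 ± 2.22), *Tpsab1* (0.42 ± 0.73) and *Mitf* (0.53 ± 1.30) had means above 0 that were smaller than their spread. Those of *Fcer1a* without replicate 2 (−0.80), and of *Tpsb2* (−0.13) and *Mitf* (−0.22) without replicate 3, were below 0, and without replicate 1 *Tpsab1* had 0.013 while *Fcer1a* (2.36) and *Tpsb2* (2.03) were past both criteria. *Mcpt1* (−0.60 ± 1.51), *Mcpt2* (−0.67 ± 1.16) and *Mcpt4* (−0.89 ± 2.38) had means below 0, that of *Mcpt1* being 0.014 without replicate 1, that of *Mcpt2* −0.0054 without replicate 2 and that of *Mcpt4* 0.27 with median centring. As *Mcpt2* was well above background in just 1 culture of each genotype, its mean is not exact. *Mcpt1* without replicate 2 (−1.44) and *Mcpt4* without replicate 1 (−2.26) were past both criteria and lower. The part of mast cell content in the storage gene ratios was not tested.

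Probes for markers of other blood cells gave signal as well. Of all 41157 tested probes, 25559 were well above background in every channel, so such counts alone do not show that these cells were present. Of 9 neutrophil genes, 8 were well above background in every channel (*Mpo*, *Elane*, *Prtn3*, *Ctsg*, *Ltf*, *Camp*, *Ngp* and *S100a9*). Their summed normalized intensity, with *S100a8*, was 10839, 19811 and 9839 in WT and 72138, 6847 and 230580 in *p85α−/−*. The *p85α−/−* cultures of replicates 1 and 3 were thus far above the other 4. These are also the 2 highest cultures for *Hdc*, *Hal* and the brightest *Ndst1* probe, for *Hdc* narrowly in replicate 1 (12.25, against 12.06 in WT of replicate 2). Brightest probes of the other storage genes differed. *Srgn*, *Tph1* and *Slc18a2* were highest in *p85α−/−* of replicate 2. *Ndst2* was highest in *p85α−/−* of replicates 3 and 2, *Ddc* in WT of replicate 3, and *Ext1* in *p85α−/−* of replicate 1 and WT of replicate 2. Without *Mpo*, the brightest, the sums were 4735, 2842 and 5137 in WT and 26544, 5209 and 32950 in *p85α−/−*, so that the *p85α−/−* culture of replicate 2 went from the lowest of the 6 to slightly above the WT cultures. *Mpo* had log2 ratios of 2.90, −3.37 and 5.39, and its mean of 1.64 became −0.24 without replicate 3 and 4.15, past both criteria, without replicate 2. *Ctsg* (1.86 ± 0.51), *S100a8* (2.14 ± 1.56) and *S100a9* (2.55 ± 1.79) were past both criteria and higher, with adjusted p of 0.823, 0.908 and 0.908, and the median of the list was 1.64. Over all tested probes, 2.78% were past both criteria and higher. *Prtn3* (−0.51 ± 1.01), *Ltf* (−0.55 ± 0.86) and *Ngp* (−0.11 ± 0.22) had means below 0. Those of *Prtn3* (log2 ratios of 0.42, −0.37 and −1.58) and *Ltf* (−0.31, 0.17 and −1.51) rested mostly on replicate 3. *S100a8* and *S100a9* were no longer past both criteria without replicate 1 (1.88 and 2.05) or without replicate 3 (1.52 and 2.03), nor without the pairing by array, and *S100a8* also not with loess (2.22). The cells had been sorted for KIT and the IgE receptor before SCF was given, and the part of neutrophil RNA in these ratios was not tested.

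None of the other lists described here held a gene past both criteria. The 3 basophil genes (*Mcpt8*, the brightest, *Prss34* and *Cd200r3*) were well above background in every channel, with summed intensity of 2548, 9251 and 1447 in WT and 5242, 6703 and 5060 in *p85α−/−*, and a median log2 ratio of 0.89. Of 8 macrophage genes, 7 were well above background throughout (*Csf1r*, *Adgre1*, *Cd68*, *Cd14*, *Lyz1*, *Lyz2* and *Msr1*), *Cd14* was the brightest, and sums were 3036, 7462 and 4615 in WT and 4358, 3008 and 6421 in *p85α−/−*. *Adgre1* (−1.39 ± 1.12) was lower in every *p85α−/−* culture than in any WT culture, and *Csf1r* (−1.01 ± 1.35) was lower on all 3 arrays but mostly in replicate 3 (−2.55). The other way, *Lyz1* had 1.14 ± 2.34, *Cd14* 0.30 ± 0.74, *Cd68* 0.16 ± 0.25 and *Msr1* 0.10 ± 0.81. The mean of *Lyz1* rested on replicate 3, its log2 ratios being 0.15, −0.55 and 3.80. The median of the 8 was 0.13, with 5 means above 0. *Mrc1*, a marker of mature macrophages, was not well above background in any WT culture and was so in 2 *p85α−/−* cultures. These lists include genes that mast cells may express too. For 4 eosinophil genes, of which *Epx* was the brightest and *Prg2* and *Ear1* were also well above background throughout, sums were 1135, 1534 and 3038 in WT and 4292, 1953 and 1989 in *p85α−/−*. Of 5 megakaryocyte and platelet genes, *Itga2b*, the brightest, *Gp9* and *Gp1ba* were well above background throughout, and sums were 3376, 4106 and 7190 in WT and 2731, 14508 and 8376 in *p85α−/−*. For these 4 lists, sums of the genotypes overlapped.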

How the data were processed

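The members and gene lists were chosen with earlier results of these data known. The authors deposited scanner files made with Agilent Feature Extraction (version 9.5.1.1), holding the mean intensity and local background intensity of each spot, processed intensity values and log10 ratios of red over green, and a table of log10 ratios. That table equals the scanner's ratio (tolerance 1.5e-05) on 40929 of 40929 single-spot probes for replicate 1, but on 190 and 226 for replicates 2 and 3, so it was not used. Its column medians were 0, 0.0245 and −0.00306.

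Background was corrected by normexp with an offset of 50, and quantile normalization was run over the 6 channels in limma 3.58.1 (R 4.3.3), as the methods name quantile normalization. Control and outlier spots were left out, and spots of a probe were averaged. The log2 ratio was tested against 0 with limma (lmFit, eBayes). The ratio pairs the cultures of an array. No spot was saturated, all arrays lay on 1 slide, and no batch could be tested. List genes were found by name, alias or transcript accession (RefSeq, GRCm38.p6, matched for 22943 tested probes, 55.7%). *Chsy3*, *Chst13*, *Ly6g* and *Ear2* were not found.

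Named were all probes of the 8 genes, *Pik3r1*, mast cell markers, and the brightest and bright members of the other marker lists described. From each pathway list, genes past both criteria were named first. Up to a total of 2 per list, they were followed by the largest means, either way, with 1 sign on all arrays. These came from probes well above background in the WT or the *p85α−/−* culture of every array. The procedure was also run on simulated ratios, whose outcome is not given here, and no result rests on that run. The alternatives were loess with Aquantile, median centring, no background subtraction, processed signals, dim probes left out, outlier spots kept, no replicate block, each replicate left out, the mean over a gene's probes and the methods' t-test.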

Additional observations from a re-analysis of the deposited data

How the results depend on the processing

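No probe had an adjusted p under 0.05 by limma's test under any alternative tried or by the methods' t-test, unpaired or paired, with the lowest adjusted p between 0.368 and 0.9999. Both criteria were passed by 1829 probes here, by 1125 in the methods' t-test and by 819 when it was paired by array, and 1755 and 1501 had an unadjusted p under 0.05. When 1 replicate was dropped, the count ran from 1555 to 3165, the latter without replicate 2, where 1503 were higher and 1662 lower in *p85α−/−* (47.5% higher). With no replicate block, and so without the pairing by array, they were 1809. Median centring gave 2692, of which 91.1% were higher in *p85α−/−* against 62.6%, and moved the median of all log2 ratios from −0.05 to 0.09. The authors' table was not run as an alternative, since its rows do not match the scanner's probes for replicates 2 and 3.

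Under the alternatives, 49 results were followed. They were the storage gene and *Pik3r1* probes, the mast cell markers, the named pathway genes, *Mpo*, *Ctsg*, *S100a8* and *S100a9*. Other named marker genes were not followed. Of the 528 values, 453 kept their direction and side of the criteria, 24 came to pass both, 27 no longer did and 24 changed sign. Signs changed with median centring for *Ddc* (0.89), *Ndst1* (1.11 and, at its second probe, 0.25), *Ext1* (−0.048), *Mcpt4* (0.27) and the second *Pik3r1* probe (0.056), with loess for *Ddc* (0.047 and, at its dimmer probe, −0.085) and *Pik3r1* probe 4 (0.050), and over the mean of a gene's probes for *Ndst1* (0.044) and *Mitf* (−0.047). The cause was not tested. With 1 replicate left out, log2 ratios ran from −0.74 to 2.27 for *Hdc*, from −1.37 to 2.35 at the dimmer *Tph1* probe, from −1.27 to 0.97 and, at the dimmer probe, −0.17 to 0.16 for *Ddc*, from −1.91 to 1.74 for *Ndst1*, from −0.0023 to 0.21 for *Ext1*, from −0.80 to 2.36 for *Fcer1a*, from −0.13 to 2.03 for *Tpsb2*, from −1.44 to 0.014 for *Mcpt1*, from −0.22 to 0.91 for *Mitf*, from −0.24 to 4.15 for *Mpo* and from −0.19 to 0.086 at *Pik3r1* probe 4. Probes dim in WT, such as the dimmest 2 of *Ndst1*, are limited by their signal over background.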
